A study of Mus musculus with 8 samples.

Results

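The proteasome is described here through 47 of the 55536 genes counted in activated mouse CD8+ T cells. Members were all protein-coding genes (GRCm38, Ensembl 96) with symbols that start with Psma to Psmg followed by a digit, apart from the immunoproteasome subunits Psmb8, Psmb9 and Psmb10. The libraries hold mRNA of OT-I CD8+ T cells of the C57BL/6 strain, whose T cell receptor is a transgene that recognises SIINFEKL, a peptide of ovalbumin. By the study's methods the cells came from lymph nodes of donors on a Rag-1KO background, 5 to 12 weeks old. Cells of both groups were stimulated with 100 nM of the peptide for 2 days, washed, and kept in 20 ng/ml recombinant human IL-2 for 2 days. The 4 GC7 libraries came from cells given 10 µM GC7 during the IL-2 culture, and the 4 Mock libraries from cells without GC7, for which the methods name acetic acid as the vehicle. GC7 is a spermidine derivative that inhibits deoxyhypusine synthase, the enzyme of the initial step that makes the hypusine residue of the translation factor eIF5a. The study also reports effects of GC7 that do not depend on eIF5a, so the comparison shows how the mRNAs of the proteasome stood with GC7 and not with a loss of hypusine alone. All cells carry 1 T cell receptor specificity and were cultured in vitro, so the groups model peptide-stimulated effector cells and not a mixed T cell population.

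The proteasome degrades proteins marked with ubiquitin. Its core particle is a barrel of alpha and beta rings, with the proteolytic sites on the beta subunits Psmb5, Psmb6 and Psmb7, and a 19S regulatory particle at its end binds, unfolds and feeds in the substrate with a ring of ATPases (the base) and a lid that removes ubiquitin. Other activators can dock in place of the 19S particle, dedicated chaperones assemble the rings, and in lymphocytes the subunits Psmb8, Psmb9 and Psmb10 replace the standard catalytic subunits in the immunoproteasome, which makes peptides for MHC class I.

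The Mock libraries held 20045041 to 25284730 counts and the GC7 libraries 17528776 to 23449164. Levels are given as CPM, counts scaled to library size with TMM factors. Only genes above 3 CPM in 4 or more of the libraries were tested, which left 11189 genes and 45 of the 47 members. A gene was called lower or higher at an FDR under 0.01, where FDR is the Benjamini-Hochberg adjusted p of edgeR's quasi-likelihood test over all 11189 genes. The methods give 4 biological replicates per group without saying which animals or cultures they came from, so p-values measure only the spread between these libraries. Mock replicate 2 stood apart from the other Mock libraries: it was the highest Mock library in 40 of the 45 members tested and the highest of all 8 libraries in 31. Member calls that change without it are named, and values without it are given for the catalytic subunits and the sums over parts of the proteasome.

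All 8 CD8 T cell markers used (Cd8a, Cd8b1, Cd3d, Cd3e, Cd3g, Thy1, Cd2 and Lck) passed the filter, with Thy1 as the most abundant. They summed to 4800, 5624, 4855 and 4863 CPM in Mock replicates 1 to 4 and to 4270, 4122, 3983 and 4323 CPM in GC7. Of these 8 markers, 5 were lower (62.5%) and 1 was higher (12.5%) in GC7, beside 23.5% lower and 23.0% higher of all genes tested. Summed natural killer cell markers (3 genes, led by Klrb1c) reached 0.0932 to 0.774 CPM, and summed myeloid and dendritic cell markers (8 genes, led by Itgam, Siglech at 0 counts) 0.243 to 0.852 CPM. The 6 B cell markers summed to 459.9, 574, 476 and 494 CPM in Mock replicates 1 to 4 and to 269, 270.0, 291 and 294 CPM in GC7, nearly all of it Ighm. Without Ighm they summed to 4.63 to 10.1 CPM, with Ms4a1 and Pax5 at 0 counts in all 8 libraries. The 3 CD4 T cell markers summed to 76.2 to 96.9 CPM, of which all but 0.595 to 1.46 CPM came from Zbtb7b. The part of the Ighm and Zbtb7b signals in the results was not tested.

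Of the 45 members tested, 9 were lower and 3 were higher in GC7 than in Mock, and 33 passed neither call. Over all 11189 genes tested, 23.5% were lower and 23.0% higher, against 20% and 6.67% of the members. Among the 9119 genes within the members' range of mean level (6.90 to 237 CPM), 22.7% were lower and 23.4% higher. The share of lower members was thus near the background, while higher members made up a smaller share. Fewer cells of a kind and less RNA per cell cannot be told apart in such bulk samples.

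Changes were small. No member passed a 2-fold change by edgeR (0 at an unadjusted p under 0.05, 0 by DESeq2 and 0 by limma-voom), while 5.31% of all genes tested were lower and 3.17% higher by more than 2-fold. The median absolute log2 fold change was 0.16 among the members and 0.29 among all genes tested. All 33 members that passed neither call had a 95% confidence interval within 1.5-fold in either direction, with the widest bounds at 0.771-fold and 1.39-fold. That limit was chosen after the values were seen. The groups did not overlap in 16 of the 45 members, against 55.6% of all genes tested.

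The median log2 fold change of the members was -0.09, with 31 below and 14 above 0, but it was 0.0026 with library totals in place of TMM factors (22 below, 23 above) and 0.0132 without Mock replicate 2 and GC7 replicate 3. Without Mock replicate 2 alone it was -0.03 (25 below, 20 above). Over all genes the median was 0.02 with TMM factors and 0.11 with library totals. With library totals, 6 members were lower and 6 higher, beside 18.4% lower and 29.9% higher of all genes. Without Mock replicate 2, 9 members were lower, the same 9, and 7 higher, the added ones being Psma3, Psmc5, Psme2 and Psme2b. The shares of all genes called lower and higher were also somewhat above those with all libraries. Each of the other 7 libraries left out in turn gave 6 to 8 lower and 2 to 3 higher members, the fewest lower without GC7 replicate 1, 2 or 4. In these 7 settings, 20% to 22.7% of all genes were lower and 18.4% to 21.1% higher. So the number of higher members rested on how the libraries were scaled and on Mock replicate 2, and the lower calls of Psmd2, Psmd8, Psmd12, Psmd13, Psme4 and Psmg1 and the higher calls of Psmg4 and Psmc3ip held in all 17 settings run.

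**Figure D1:**
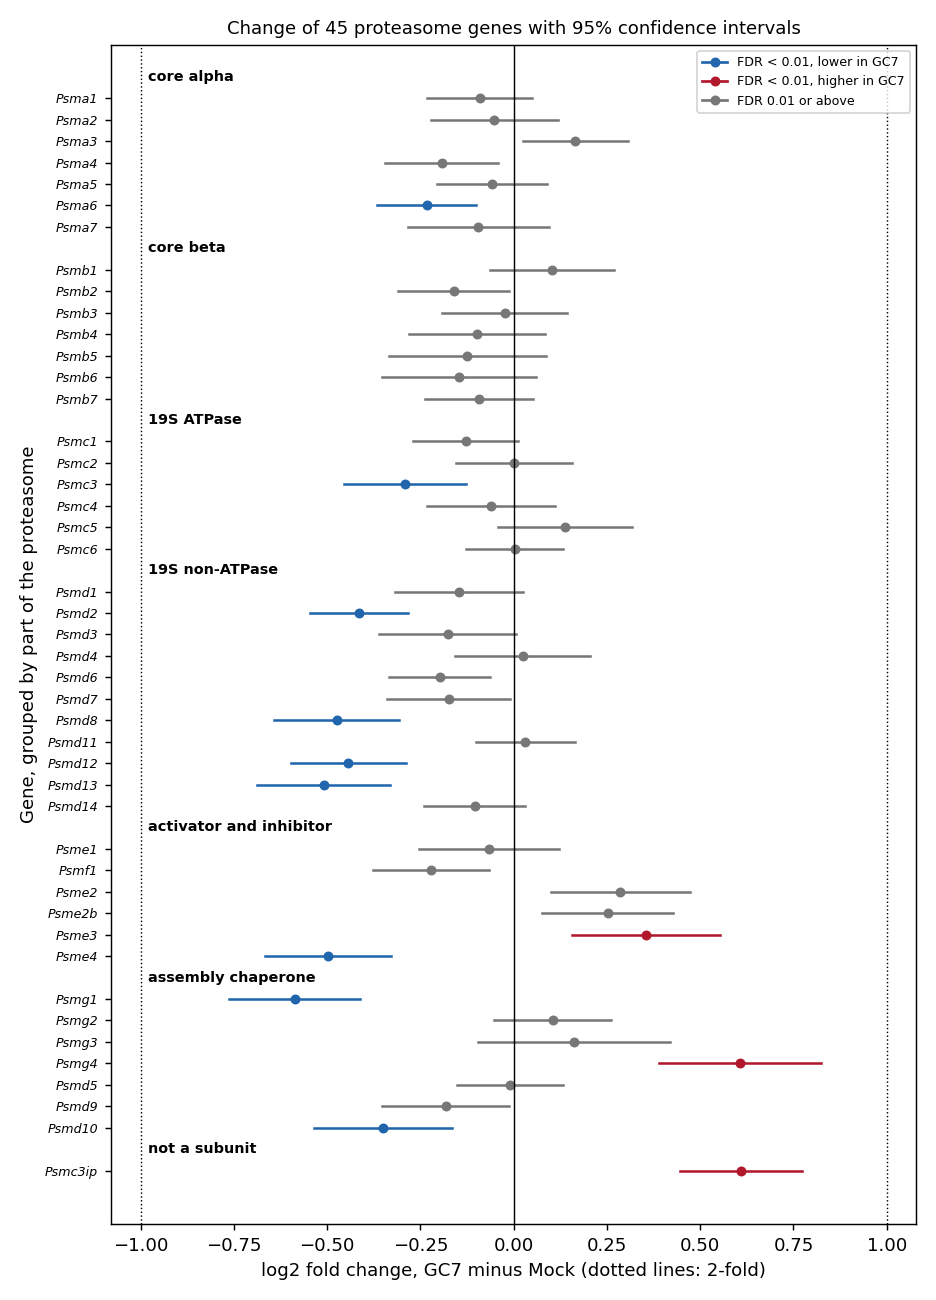
Log2 fold change of GC7 minus Mock (x axis) for the 45 members tested, grouped by part of the proteasome (y axis), with points for the estimates and bars for 95% confidence intervals from edgeR with TMM factors. Blue genes were lower (9) and red genes higher (3) at an FDR under 0.01. With library totals in place of TMM factors the counts were 6 and 6. Of all genes tested, 23.5% were lower and 23.0% higher with TMM factors, and 18.4% and 29.9% with library totals. No point lies past the dotted 2-fold lines.

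**Figure D2:**
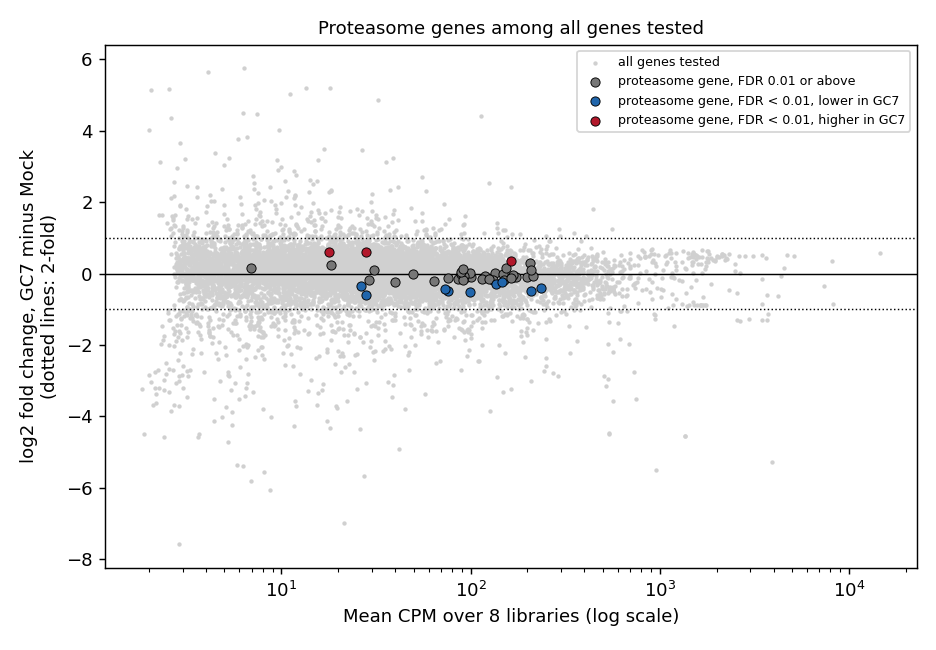
Log2 fold change of GC7 minus Mock (y axis) against mean CPM over 8 libraries (x axis, log scale), 1 point per gene, for the 11189 genes tested (grey) and the 45 members (outlined, coloured by call). The members lie between 6.90 and 237 CPM and stay within the dotted 2-fold lines, which 594 lower and 355 higher genes pass.

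Promoter sequences are shown for the members whose window holds the core of the antioxidant response element, TGACNNNGC, the motif bound by Nfe2l1 and Nfe2l2 with small Maf partners, since Nfe2l1 is known to raise proteasome genes. RefSeq promoters (GRCm38.p6, 250 bases before to 50 after the start) matched 39 of the 47 members. No entry matched Psma8, Psmb1, Psmb2, Psmb7, Psmc3, Psmd3, Psmd7 or Psmg2. Searched on both strands, the core lay in 6 of 42 member promoters (14.3%) and in 12.4% of all 32851 promoters. Each match is given 5′ to 3′ on the strand of the motif with up to 10 bases on each side, and capitals mark the core.
Psmb5: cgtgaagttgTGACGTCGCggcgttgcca
Psmb6: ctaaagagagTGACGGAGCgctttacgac
Psmc6: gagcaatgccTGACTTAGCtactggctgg
Psmd9: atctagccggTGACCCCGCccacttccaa
Psmd12: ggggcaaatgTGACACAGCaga
Psme4: gctcttctggTGACGCTGCagccgcagcg
The windows lie at chr14:54618024-54618052 for Psmb5 and chr11:70525338-70525366 for Psmb6, which carry the core on the strand of the gene. They lie at chr14:45329587-45329615 for Psmc6, chr11:107479278-107479299 for Psmd12 (shortened by the edge of the promoter) and chr11:30771758-30771786 for Psme4, which carry it on the opposite strand, and at chr5:123228149-123228177 for Psmd9, on the strand of the gene. Of these 6 genes, Psmd12 and Psme4 were lower in GC7, none was higher and 4 passed neither call, beside 23.5% lower and 23.0% higher of all genes tested. With 6 genes, nothing is read from this split. The CCAAT motif, searched in the same way, lay in 14 of the 42 member promoters (33.3%) and in 37.4% of all promoters, among them 2 of the 8 lower, 2 of the 3 higher and 9 of the 27 uncalled tested members with an entry.

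Few core genes passed a call. Of the 14 subunit genes tested, 1 was lower (7.14%, against 23.5% of all genes), the alpha subunit Psma6, and none was higher by edgeR, against 23.0% of all genes (1 at an unadjusted p under 0.05, 0 by DESeq2 and 0 by limma-voom). Their summed level was 2080 ± 214 CPM in Mock and 1985 ± 35.7 CPM in GC7 (SD, n = 4 each), and the groups overlapped. Without Mock replicate 2 the Mock sum was 1974 ± 42.8 CPM (SD, n = 3). The median log2 fold change of the 14 genes was -0.09 with TMM factors, 0.0032 with library totals and -0.02 without Mock replicate 2.

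Psma6 (ENSMUSG00000021024, chr12:55384222-55418454, forward strand), a subunit of the outer ring that gates the barrel, stood at 157, 173, 148 and 156 CPM in Mock replicates 1 to 4 and 133, 138, 131 and 138 CPM in GC7 replicates 1 to 4. All 4 GC7 libraries lay below all 4 Mock libraries. It fell from 159 ± 10.3 CPM in Mock to 135 ± 3.44 CPM in GC7 (SD, n = 4 each, log2 fold change -0.23, SE 0.0611, FDR 0.00573). The call was near the threshold and held in 8 of the 17 settings. Among others, it was lost with library totals (FDR 0.0485), without any 1 of Mock replicates 1 and 4 and the 4 GC7 replicates (FDR 0.0117 to 0.0211), and without the filter on low counts (FDR 0.0142). The other 6 tested alpha genes and all 7 tested beta genes passed neither call, with log2 fold changes from -0.19 (Psma4) to 0.17 (Psma3). Psma3 was called higher without Mock replicate 2 and with library totals.

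The standard catalytic subunits passed no call. Psmb5 (ENSMUSG00000022193, chr14:54614119-54618022, reverse strand), which carries the chymotrypsin-like site, stood at 78.9, 95.1, 71.4 and 72.2 CPM in Mock replicates 1 to 4 and 76.2, 77.4, 63.8 and 73.9 CPM in GC7 replicates 1 to 4. Its groups overlapped, Mock replicate 2 was the highest library and GC7 replicate 3 the lowest (log2 fold change -0.12, SE 0.0962, FDR 0.287). Psmb6 (ENSMUSG00000018286, chr11:70525367-70527858, forward strand), which carries the caspase-like site, stood at 124, 163, 118 and 121 CPM in Mock replicates 1 to 4 and 112, 122, 119 and 122 CPM in GC7 replicates 1 to 4. Mock replicate 2 was again far above the other libraries, and the groups overlapped (log2 fold change -0.15, SE 0.0944, FDR 0.201). Psmb7 (ENSMUSG00000026750, chr2:38588036-38644087, reverse strand), which carries the trypsin-like site, stood at 97.2, 111, 92.3 and 96.5 CPM in Mock replicates 1 to 4 and 92.8, 89.5, 95.3 and 94.98 CPM in GC7 replicates 1 to 4, with GC7 values within or below those of Mock (log2 fold change -0.09, SE 0.0666, FDR 0.253). None of the 17 settings gave any of these 3 genes an FDR under 0.01. Without Mock replicate 2 their log2 fold changes were closer to 0, at -0.03 for Psmb5, -0.03 for Psmb6 and -0.04 for Psmb7. Psmb5 changed sign without Mock replicate 2 and GC7 replicate 3 (log2 fold change 0.04), and Psmb7 with library totals (0.0038). The processed pseudogene Gm3375 matches Psmb5 at 98.9% over 796 bases and held 4.63% as many counts (log2 fold change 0.07, FDR 0.742), so reads of the pair may be split between them.

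**Figure D3:**
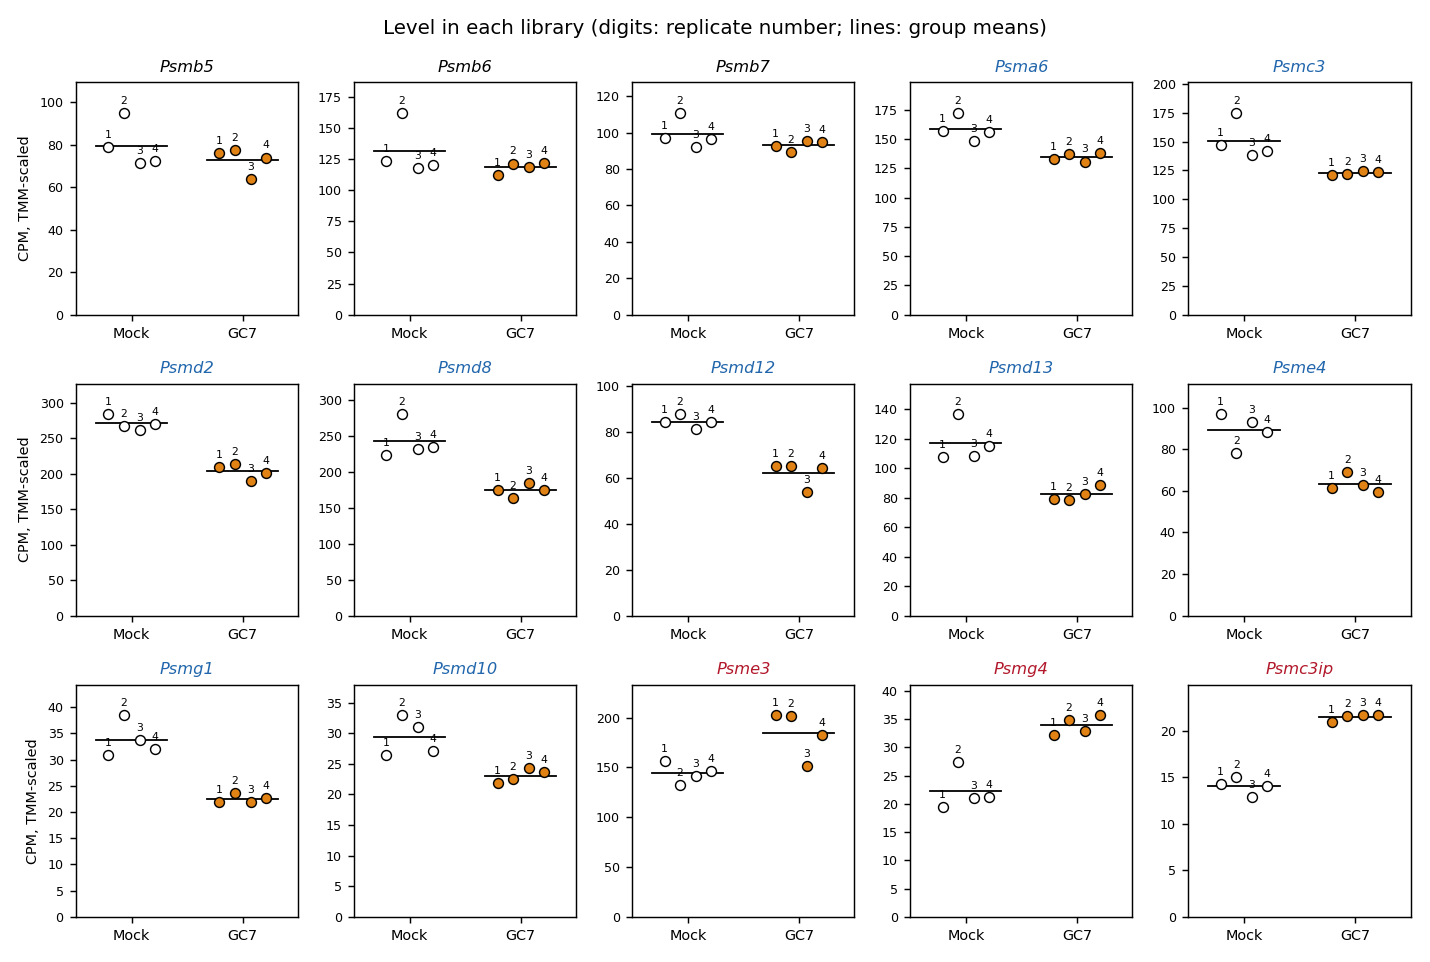
TMM-scaled CPM (y axis, from 0) of the 3 standard catalytic subunit genes and the 12 called members in each library (x axis, Mock open, GC7 filled), with replicate numbers at the points and lines at group means. Titles in blue mark lower and in red higher genes. Mock replicate 2 is the highest Mock library in Psmb6 (163 CPM) and Psmd8 (281 CPM), and GC7 replicate 3 is the lowest GC7 library in Psmd12 (53.9 CPM).

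The immunoproteasome subunits, outside the rule, were compared with the standard subunits they can replace. Psmb8 stood at 401, 516, 406 and 402 CPM in Mock replicates 1 to 4 and 338, 347, 332 and 357 CPM in GC7 replicates 1 to 4. All GC7 libraries lay below all Mock libraries, and Psmb8 was lower (log2 fold change -0.33, SE 0.0844, FDR 0.00517), a call lost with library totals (FDR 0.0182) and without any 1 GC7 replicate (FDR 0.0121 to 0.018). Psmb9 stood at 163, 217, 176 and 180.2 CPM in Mock replicates 1 to 4 and 153, 157, 166 and 176 CPM in GC7 replicates 1 to 4, with overlapping groups (log2 fold change -0.18, SE 0.0863, FDR 0.0954). Psmb10 stood at 56.1, 77.97, 57.7 and 57.03 CPM in Mock replicates 1 to 4 and 50.9, 50.4, 44.1 and 53.2 CPM in GC7 replicates 1 to 4. Its groups did not overlap and it missed the threshold (log2 fold change -0.32, SE 0.106, FDR 0.0193), which it passed by DESeq2 (FDR 0.00919) and without the filter on low counts (FDR 0.000587). Without Mock replicate 2 the log2 fold changes were smaller, at -0.23 for Psmb8 (FDR 0.00109), -0.09 for Psmb9 (FDR 0.19) and -0.20 for Psmb10 (FDR 0.0184).

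A count ratio within a library does not depend on the scaling. The ratio Psmb7/Psmb10 was 1.73, 1.42, 1.60 and 1.69 in Mock replicates 1 to 4 and 1.82, 1.78, 2.16 and 1.79 in GC7 replicates 1 to 4. All 4 GC7 values exceeded all 4 Mock values, by 0.23 on the log2 scale (two-sided exact permutation test, p = 0.0286, the smallest possible for 4 against 4, adjusted p = 0.0857 over the 3 ratios). The ratio Psmb5/Psmb8 was 0.197, 0.184, 0.176 and 0.180 in Mock replicates 1 to 4 and 0.225, 0.223, 0.192 and 0.207 in GC7 replicates 1 to 4. GC7 replicate 3 lay within the Mock range, and the difference of 0.20 did not pass (exact permutation test, p = 0.0571, adjusted p = 0.0857). The ratio Psmb6/Psmb9 lay between 0.670 and 0.760 in Mock libraries and between 0.695 and 0.776 in GC7 libraries, a difference of 0.04 (exact permutation test, p = 0.543). None of the 3 ratios passed an adjusted p of 0.05, which a single ratio could not reach here even with groups that do not overlap, so no statement on a change or its absence is drawn from these tests. The exons of Psmb7 share 405 bases with those of Nek6 on the opposite strand, and Nek6 rose (log2 fold change 0.78, FDR 9.44e-06). The strand setting of the counting is not stated, so reads of Psmb7 and Nek6 cannot be told apart there.

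Of the 9 lower members, 5 belong to the 19S particle. Of its 17 genes, 5 were lower (Psmc3, Psmd2, Psmd8, Psmd12 and Psmd13) and none was higher by edgeR (0 at an unadjusted p under 0.05, 0 by DESeq2 and 0 by limma-voom, and Psmc5 without Mock replicate 2). That is 29.4% of the genes, a share near the 23.5% lower among all genes. Their summed level was 2145 ± 144 CPM in Mock and 1866 ± 43.1 CPM in GC7 (SD, n = 4 each). Every GC7 library (1801 to 1889 CPM) lay below every Mock library (2023 to 2353 CPM), and the Mock sum without replicate 2 was 2076 ± 49.00 CPM (SD, n = 3). The median log2 fold change of the 17 genes was -0.15 with TMM factors and -0.05 with library totals. The ATPases of the base summed to 725 ± 66.1 CPM in Mock and 688 ± 6.35 CPM in GC7 (SD, n = 4 each), with overlapping groups, and to 692 ± 18.3 CPM (SD, n = 3) in Mock without replicate 2. The 11 subunits without ATPase activity summed to 1421 ± 78.3 CPM in Mock and 1178 ± 37.2 CPM in GC7 (SD, n = 4 each), without overlap, and to 1384 ± 31.8 CPM (SD, n = 3) in Mock without replicate 2. Of these 11 genes, 4 were lower (36.4%, beside 23.5% of all genes) and 7 passed neither call. Their sum was not split by call, so it does not describe the uncalled genes alone. The sums were compared without a test.

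**Figure D4:**
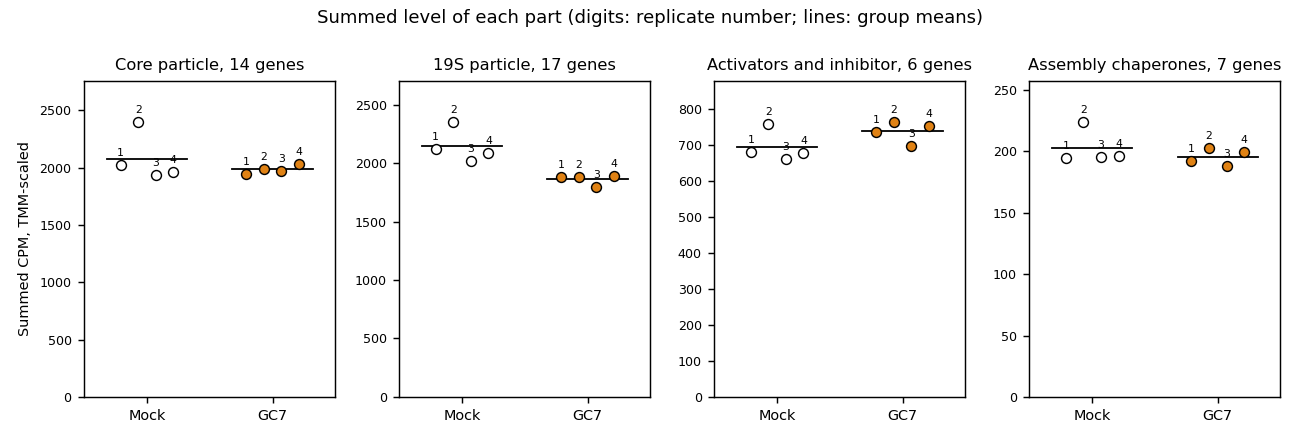
Summed TMM-scaled CPM (y axis, from 0) of the tested genes of each part of the proteasome in each library (x axis, Mock open, GC7 filled), with replicate numbers at the points and lines at group means. The 19S sums of the GC7 libraries (1801 to 1889 CPM) all lie below those of Mock (2023 to 2353 CPM), while the groups overlap in the other 3 parts, for the activators through Mock replicate 2 alone. Mock replicate 2 is the highest Mock library in every part.

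Among the 6 ATPases, which form the ring that unfolds the substrate, 1 was lower. Psmc3 (ENSMUSG00000002102, chr2:91054009-91066369, forward strand) stood at 147, 175, 138 and 142 CPM in Mock replicates 1 to 4 and 121, 122, 125 and 124 CPM in GC7 replicates 1 to 4. The 4 GC7 libraries were close to each other and below all Mock libraries, of which Mock replicate 2 was the highest. It fell from 150.5 ± 16.8 CPM in Mock to 123 ± 1.57 CPM in GC7 (SD, n = 4 each, log2 fold change -0.29, SE 0.0749, FDR 0.00519). The call held in 11 of the 17 settings and was lost, among others, with library totals (FDR 0.024) and without any 1 GC7 replicate (FDR 0.0109 to 0.0184). Its exons share 215 bases with Slc39a13 on the opposite strand, which passed no call (log2 fold change 0.25, FDR 0.0737). The other 5 ATPase genes had log2 fold changes from -0.13 (Psmc1) to 0.14 (Psmc5).

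Within the 19S particle, Psmd2 and the lid subunits Psmd8, Psmd12 and Psmd13 were lower in all 17 settings. Psmd2 (ENSMUSG00000006998, chr16:20651652-20663414, forward strand), a large scaffold of the base that docks ubiquitin receptors, stood at 284, 267, 262 and 269.8 CPM in Mock replicates 1 to 4 and 209, 214, 189 and 201 CPM in GC7 replicates 1 to 4. The lowest Mock library was above the highest GC7 library by more than the range within either group. Psmd2 fell from 271 ± 9.56 CPM in Mock to 203 ± 10.8 CPM in GC7 (SD, n = 4 each, log2 fold change -0.41, SE 0.0601, FDR 8.91e-05). Its log2 fold changes lay between -0.44 and -0.37 when 1 library was left out.

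Psmd8 (ENSMUSG00000030591, chr7:29174188-29180701, reverse strand), a lid subunit, stood at 223, 281, 231 and 234 CPM in Mock replicates 1 to 4 and 175, 164, 184 and 175 CPM in GC7 replicates 1 to 4. GC7 libraries lay below all Mock libraries, with Mock replicate 2 highest. Psmd8 fell from 242 ± 26.1 CPM in Mock to 174 ± 8.25 CPM in GC7 (SD, n = 4 each, log2 fold change -0.47, SE 0.0771, FDR 0.000217). Psmd12 (ENSMUSG00000020720, chr11:107479484-107504362, forward strand), also of the lid and with the motif core in its promoter, stood at 84.5, 87.9, 81.1 and 84.4 CPM in Mock replicates 1 to 4 and 65.2, 65.3, 53.9 and 64.2 CPM in GC7 replicates 1 to 4. GC7 replicate 3 was lower than the other GC7 libraries, and no GC7 library reached the Mock range. Psmd12 fell from 84.5 ± 2.79 CPM in Mock to 62.1 ± 5.53 CPM in GC7 (SD, n = 4 each, log2 fold change -0.44, SE 0.0710, FDR 0.000195).

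Psmd13 (ENSMUSG00000025487, chr7:140881968-140898643, forward strand), another lid subunit, stood at 108, 137, 108 and 115 CPM in Mock replicates 1 to 4 and 79.3, 78.5, 82.4 and 88.5 CPM in GC7 replicates 1 to 4. Every GC7 library was below every Mock library, and Mock replicate 2 was the highest. Psmd13 fell from 117 ± 13.7 CPM in Mock to 82.2 ± 4.58 CPM in GC7 (SD, n = 4 each, log2 fold change -0.51, SE 0.0819, FDR 0.0002). Its exons share 342 bases with Sirt3 on the opposite strand, which fell as well (log2 fold change -0.53, FDR 0.000214) and held 16.5% as many counts, and its span holds the processed pseudogene Gm15542 (log2 fold change -0.09, FDR 0.409). Psmd13 is therefore uncertain to the extent that reads of these genes were counted for each other.

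Across the lid, 3 of 8 genes were lower (37.5%, against 23.5% of all genes, a difference that was not tested) and 5 passed neither call. In the lid 7 of 8 log2 fold changes were below 0, with TMM factors and with library totals alike. The log2 fold changes of the uncalled lid genes ran from -0.20 for Psmd6 (FDR 0.0157, groups not overlapping) to 0.03 for Psmd11, and the deubiquitinase Psmd14 was at -0.10 (FDR 0.163). Psmd6 passed the threshold by DESeq2 only. Psmd1, the other large scaffold of the base, and the ubiquitin receptor Psmd4 passed neither call (log2 fold changes -0.15 and 0.02). A transcript, A730017L22Rik, matches Psmd11 at 97.9% over 1501 bases and rose (log2 fold change 0.93, FDR 0.000613) with 5.16% as many counts, so Psmd11 is uncertain too.

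Of the 6 activator and inhibitor genes, Psme4 was lower and Psme3 higher (16.7% each, against 23.5% lower and 23.0% higher of all genes), and the other 4 passed neither call. Psme4 (ENSMUSG00000040850, chr11:30771726-30880361, forward strand), a large nuclear activator that caps the core without ATP and has the motif core in its promoter, stood at 97.00, 78.01, 93.3 and 88.3 CPM in Mock replicates 1 to 4 and 61.4, 69.2, 62.7 and 59.2 CPM in GC7 replicates 1 to 4. All GC7 libraries were below all Mock libraries, and here Mock replicate 2 was the lowest of Mock. Psme4 fell from 89.1 ± 8.23 CPM in Mock to 63.1 ± 4.28 CPM in GC7 (SD, n = 4 each, log2 fold change -0.50, SE 0.0780, FDR 0.000165), in all 17 settings. Psme3 (ENSMUSG00000078652, chr11:101316213-101323537, forward strand), the nuclear member of the 11S activator family, stood at 156, 133, 141 and 147 CPM in Mock replicates 1 to 4 and 203, 201, 152 and 182 CPM in GC7 replicates 1 to 4. GC7 replicate 3 lay within the Mock range and the other GC7 libraries above it. Psme3 rose from 144 ± 9.88 CPM in Mock to 184 ± 23.8 CPM in GC7 (SD, n = 4 each, log2 fold change 0.35, SE 0.0909, FDR 0.00502). Its call was lost without Mock replicate 3 or 4 or without GC7 replicate 1, 2 or 4 (FDR 0.0117 to 0.0177).

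Psme1 and Psme2 encode the partners of the interferon-inducible 11S activator. Psme1 had a log2 fold change of -0.07 (FDR 0.527) and Psme2 of 0.29 (FDR 0.0122), below the call with all libraries. Psme2 stood at 172, 225, 171 and 175 CPM in Mock replicates 1 to 4 and 223, 225, 226 and 233 CPM in GC7 replicates 1 to 4, so that Mock replicate 2 alone reached the GC7 values, and without that library it was called higher, as it was with library totals, without the filter on low counts, by DESeq2 and by limma-voom. The count ratio Psme2/Psme1 was 0.865, 0.866, 0.841 and 0.841 in Mock replicates 1 to 4 and 1.12, 1.06, 1.13 and 1.05 in GC7 replicates 1 to 4. Every GC7 library was above every Mock library, without a test since the ratio was chosen after the values were seen. Psme2b, on another chromosome, matches Psme2 at 99.4% over 794 bases, so Psme2 and Psme2b (log2 fold change 0.25, FDR 0.0168) are uncertain. Psme2b was likewise called higher without Mock replicate 2 and with library totals, which made 3 higher genes of the 6. The share of all genes called higher rose in both settings too. It went from 23.0% as reported to 29.9% with library totals, and rose by less without Mock replicate 2. The exons of Psme1 share 14 bases with Emc9 on the opposite strand, which fell (log2 fold change -0.62, FDR 0.00142). Psmf1, an inhibitor of the core, had a log2 fold change of -0.22 (FDR 0.0173, groups not overlapping) and passed the threshold by DESeq2 only. The 6 genes summed to 696 ± 43.2 CPM in Mock and 739 ± 28.7 CPM in GC7 (SD, n = 4 each). The groups overlapped through Mock replicate 2 alone (760.1 CPM): without it the Mock sum was 675 ± 10.5 CPM (SD, n = 3), and every GC7 library (699 to 765 CPM) lay above every remaining Mock library (663 to 683 CPM).

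Of the 7 assembly chaperone genes, Psmg1 and Psmd10 were lower (28.6%) and Psmg4 was higher (14.3%), beside 23.5% lower and 23.0% higher of all genes. Psmg1 (ENSMUSG00000022913, chr16:95979933-95990960, reverse strand), whose product pairs with that of Psmg2 to start the alpha ring, stood at 30.9, 38.5, 33.7 and 31.97 CPM in Mock replicates 1 to 4 and 21.9, 23.6, 21.9 and 22.6 CPM in GC7 replicates 1 to 4. The GC7 libraries were close together and below all Mock libraries. Psmg1 fell from 33.8 ± 3.38 CPM in Mock to 22.5 ± 0.799 CPM in GC7 (SD, n = 4 each, log2 fold change -0.59, SE 0.0806, FDR 5.69e-05), the largest decrease among the tested members with all libraries. Without Mock replicate 2, Psme4 fell more (log2 fold change -0.56, against -0.52 for Psmg1). Psmg4 (ENSMUSG00000071451, chr13:34162964-34178173, forward strand), whose product pairs with that of Psmg3 in the same process, stood at 19.5, 27.3, 20.97 and 21.3 CPM in Mock replicates 1 to 4 and 32.3, 34.9, 32.9 and 35.8 CPM in GC7 replicates 1 to 4. Every GC7 library was above every Mock library, with Mock replicate 2 the highest of Mock. Psmg4 rose from 22.3 ± 3.47 CPM in Mock to 33.95 ± 1.65 CPM in GC7 (SD, n = 4 each, log2 fold change 0.61, SE 0.0996, FDR 0.000233). The calls of Psmg1 and Psmg4 held in all 17 settings.

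The partners of Psmg1 and Psmg4 passed no call. Psmg2 had a log2 fold change of 0.11 (FDR 0.227) and Psmg3 of 0.16 (FDR 0.258), with overlapping groups. The count ratio Psmg1/Psmg2 was 1.02, 1.24, 1.21 and 1.07 in Mock replicates 1 to 4 and 0.683, 0.718, 0.757 and 0.663 in GC7 replicates 1 to 4. It was above 1 in all Mock libraries and below 1 in all GC7 libraries. The count ratio Psmg4/Psmg3 was 3.14, 3.78, 3.52 and 3.19 in Mock replicates 1 to 4 and 4.99, 4.74, 4.75 and 4.28 in GC7 replicates 1 to 4, again without overlap. Both ratios were chosen after the values were seen and were not tested, and Psmg3 was the member tested at the lowest level, with 121 counts in its smallest library.

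**Figure D5:**
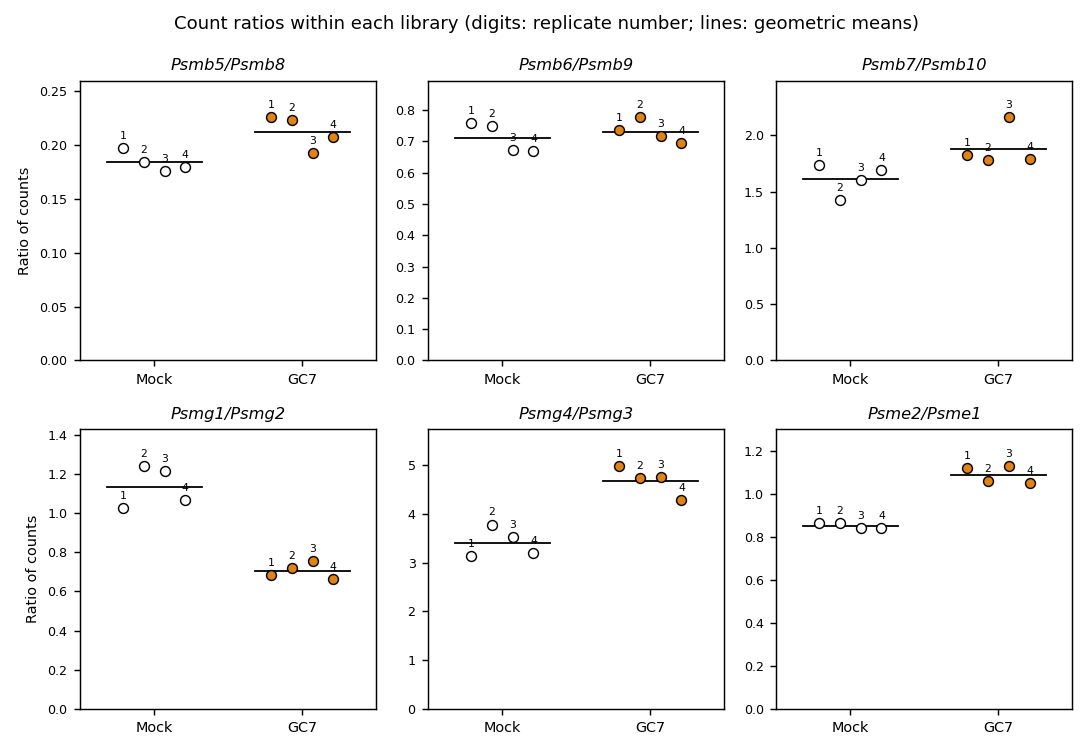
Ratio of counts (y axis, from 0) of 2 proteasome genes within each library (x axis, Mock open, GC7 filled), with replicate numbers at the points and lines at geometric means. The top row holds the 3 tested ratios of a standard to an immunoproteasome subunit (adjusted p = 0.0857, 0.543 and 0.0857 by exact permutation), and the bottom row holds 3 ratios chosen after their values were seen, in which the groups do not overlap.

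Psmd10 (ENSMUSG00000031429, chrX:140948429-140956728, reverse strand), a chaperone of the 19S base also known as gankyrin, stood at 26.5, 32.99, 30.9 and 27.1 CPM in Mock replicates 1 to 4 and 21.9, 22.5, 24.4 and 23.6 CPM in GC7 replicates 1 to 4. All GC7 libraries were below all Mock libraries by a small gap. Psmd10 fell from 29.4 ± 3.12 CPM in Mock to 23.1 ± 1.13 CPM in GC7 (SD, n = 4 each, log2 fold change -0.35, SE 0.0851, FDR 0.00365). The call was lost with library totals (FDR 0.0154) and without Mock replicate 3 or GC7 replicate 1, 2 or 4 (FDR 0.0107 to 0.0156). The other base chaperones, Psmd5 and Psmd9, passed neither call (log2 fold changes -0.01 and -0.18). The 7 chaperone genes summed to 202 ± 14.3 CPM in Mock and 196 ± 6.54 CPM in GC7 (SD, n = 4 each), with overlapping groups, and to 195 ± 0.673 CPM (SD, n = 3) in Mock without replicate 2. Their median log2 fold change was -0.0096 with TMM factors and 0.09 with library totals. It turned positive without Mock replicate 2 (0.0108), GC7 replicate 3 (0.006) or GC7 replicate 4 (0.0176), and stayed negative without any other library.

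Psmc3ip (ENSMUSG00000019303, chr11:101091823-101095436, reverse strand) matches the naming rule without encoding a proteasome subunit, since its product is a partner of recombinases in homologous recombination. It stood at 14.3, 15.01, 12.9 and 14.03 CPM in Mock replicates 1 to 4 and 20.9, 21.5, 21.7 and 21.7 CPM in GC7 replicates 1 to 4. It rose from 14.1 ± 0.892 CPM in Mock to 21.4 ± 0.349 CPM in GC7 (SD, n = 4 each, log2 fold change 0.61, SE 0.0752, FDR 2.37e-05) without overlap and in all 17 settings. Its exons share 385 bases with Mlx on the opposite strand, which fell (log2 fold change -0.45, FDR 8.86e-05) and held 174% as many counts, so the level of Psmc3ip is uncertain. Without Psmc3ip, 2 of 44 tested members were higher.

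Psma8, a germ cell alpha subunit, and Psmb11, the beta subunit of the thymic proteasome, did not pass the filter, with at most 8 counts in any library. Psma8 had 5, 8, 4 and 4 counts in Mock replicates 1 to 4 and 1, 2, 5 and 3 in GC7, and Psmb11 had 3, 7, 2 and 3 counts in Mock and 0, 1, 1 and 2 in GC7. Per kilobase of merged annotated exon, Mock levels of the tested members ranged from 2.25 CPM for Psmg3 to 128.5 CPM for Psma6. Among the 19S genes Psmc1 had 87.9 and Psmd1 12.5 CPM per kilobase, and among the chaperones Psmg4 had 40.1 and Psmg1 25.1 in Mock, against 61.2 and 16.7 in GC7. Near-identical stretches in other annotated transcripts were found for 19 members. Of these, 5 (Psmb5, Psmc2, Psmd11, Psme2 and Psme2b) match a gene that was itself tested, so the levels of these 5 are uncertain. Psmc2 matched the most genes, but only over part of its 5031 exon bases. Its matches include 8 tested genes, such as Rock1 (93.1% over 317 bases), and are not copies of the whole gene.

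Other genes of the pathway were read from lists. Of 12 further proteasome components and partners matched, 1 was lower, 1 higher and 10 passed neither call. Akirin2, which brings proteasomes into the nucleus, stood at 46.1, 52.2, 46.3 and 50.2 CPM in Mock replicates 1 to 4 and 32.3, 35.2, 34.8 and 35.7 CPM in GC7 replicates 1 to 4 and fell without overlap (log2 fold change -0.50, SE 0.0676, FDR 5.17e-05). Usp14, a deubiquitinase bound to the 19S particle, stood at 68.1, 65.6, 67.8 and 67.05 CPM in Mock replicates 1 to 4 and 85.3, 83.4, 73.8 and 80.1 CPM in GC7 replicates 1 to 4 and rose without overlap (log2 fold change 0.27, SE 0.0612, FDR 0.00257), a call lost without Mock replicate 4 (FDR 0.0115) or GC7 replicate 1 (FDR 0.0106). The assembly factor Pomp and the ubiquitin receptor Adrm1 had log2 fold changes of -0.01 and -0.07 and passed neither call (chosen after their values were seen).

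Of 12 tested regulators of proteasome genes, 3 were lower and 5 higher, and Nfe2l3 did not pass the filter. Nfe2l1, the membrane-bound transcription factor that raises proteasome genes when proteasome activity falls, stood at 129, 116, 129 and 126 CPM in Mock replicates 1 to 4 and 193, 184, 169.8 and 170.4 CPM in GC7 replicates 1 to 4. All GC7 libraries were above all Mock libraries (log2 fold change 0.52, SE 0.0645, FDR 2.53e-05). Ngly1, the glycanase needed for active Nfe2l1 protein, stood at 102, 105, 104 and 107 CPM in Mock replicates 1 to 4 and 58.1, 58.4, 60.7 and 56.4 CPM in GC7 replicates 1 to 4 and fell without overlap (log2 fold change -0.84, SE 0.0543, FDR 9.81e-08). Maff, a small Maf partner, stood at 25.99, 31.4, 28.3 and 31.1 CPM in Mock replicates 1 to 4 and 9.64, 9.92, 8.76 and 8.98 CPM in GC7 replicates 1 to 4 and fell past 2-fold (log2 fold change -1.65, SE 0.0879, FDR 1.93e-08). The other called regulators, named after their values were seen, were by log2 fold change Mafg (-0.36, lower) and Nfe2l2 (0.72), Sel1l (0.62), Fbxw7 (0.40) and Btrc (0.35), all higher.

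Among 6 ubiquitin and E1 genes, 1 was lower and 1 higher. Uba1, the main ubiquitin-activating enzyme, stood at 565, 529, 556 and 554 CPM in Mock replicates 1 to 4 and 417, 411, 367 and 398 CPM in GC7 replicates 1 to 4 and fell without overlap (log2 fold change -0.47, SE 0.0625, FDR 4.46e-05). Rps27a, which encodes ubiquitin fused to a ribosomal protein, stood at 906, 1153, 943 and 906 CPM in Mock replicates 1 to 4 and 1326, 1349, 1706 and 1456 CPM in GC7 replicates 1 to 4 and rose without overlap (log2 fold change 0.58, SE 0.102, FDR 0.0004). Of 9 genes that deliver substrates to the proteasome, 3 were lower and 1 higher. Sqstm1, an autophagy receptor that binds ubiquitin, fell from 206 ± 13.8 CPM in Mock to 152 ± 13.7 CPM in GC7 (SD, n = 4 each, log2 fold change -0.44, SE 0.0762, FDR 0.000382), and the shuttle factor Ubqln2 fell from 30.9 ± 1.80 CPM in Mock to 23.7 ± 2.83 CPM in GC7 (SD, n = 4 each, log2 fold change -0.38, SE 0.0908, FDR 0.00318), a call lost with library totals (FDR 0.0209) and without Mock replicate 1 (FDR 0.0101) or GC7 replicate 4 (FDR 0.0103). Bag6 (lower, log2 fold change -0.26) and Ubqln4 (higher, 0.36) were named after their values were seen. The shares called in these lists were not tested against other genes, of which 23.5% were lower and 23.0% higher.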

How the data were processed

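mRNA was sequenced from 4 Mock and 4 GC7 libraries, grouped and numbered by the sample labels. The authors deposited raw counts per Ensembl gene without normalisation, made by trimming with Cutadapt, alignment to GRCm38 with STAR and counting with featureCounts. How strands and reads with several matches were treated is not stated. Genes above 3 CPM in 4 or more libraries were tested on the counts with edgeR (version 4.0.16, R version 4.3.3), with TMM factors, the group as the only term and the quasi-likelihood test. Standard errors come from the fit's weights and moderated dispersion, and were tested on simulated data. Alternatives were RLE factors, library totals, other filters, DESeq2 (version 1.42.0), limma-voom (limma version 3.58.1), a replicate block and each library left out. Leaving out Mock replicate 2 and GC7 replicate 3 together was chosen after seeing the data. Near-identical stretches (at least 200 bases at 90% identity) were searched for with BLAST (version 2.17.0) among annotated transcripts, so copies without annotation would be missed. Figures and tables came from Python (version 3.11.15). Members and lists were chosen with earlier results of these data known. Library values are given for Psmb5, Psmb6, Psmb7 and all called members. Outside the rule, the immunoproteasome genes, Nfe2l1 and the 2 called genes of largest change per list are named, and Paaf1 matched no symbol. With 17528776 or more counts per library, 3 CPM corresponds to at least 52.6 counts.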

Additional observations from a re-analysis of the deposited data

Results flagged for a closer look

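Within each group of 4 libraries, the highest or lowest library was compared with the others by the share of the group's whole range that separates it from its nearest neighbour. Of 134 groups of values read in this way, 18 held a library that stood apart by Dixon's 95% limit, where chance gives about 1 in 20. Mock replicate 2 was that library in 13 groups, GC7 replicate 3 in 4 and GC7 replicate 4 in 1. The groups are not independent, since they come from the same libraries.

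Mock replicate 2 was far above the other Mock libraries in the core subunits Psma2 (0.836 of the range), Psmb1 (0.952), Psmb3 (0.881), Psmb4 (0.937) and Psmb6 (0.876), in the 19S subunits Psmc6 (0.901) and Psmd4 (0.885), and in the activator genes Psme1 (0.843) and Psme2 (0.915). The same held for the immunoproteasome genes Psmb8 (0.954) and Psmb10 (0.929), for Rps27a (0.851) and for the summed level of the assembly chaperones (0.955). Its TMM factor of 0.935 was the lowest of the 8 libraries. The Mock mean of the summed core level was 2080 CPM with Mock replicate 2 and 1974 CPM without it, beside 1985 CPM in GC7.

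GC7 replicate 3 was above the other GC7 libraries in Psmc6 (0.924) and in the ratio Psmb7/Psmb10 (0.87), and below them in Psmd12 (0.903) and in the summed level of the 19S particle (0.96). It was also the library with the fewest counts, 17528776. GC7 replicate 4 was above the other GC7 libraries in Psma5 (0.836). The reasons for these differences were not tested.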

How the results depend on the processing

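Over the 17 settings, 6 to 11 members were lower and 2 to 8 higher, and none passed a 2-fold change. Of all genes tested in each setting, 11.9% to 27.6% were lower and 11.8% to 29.9% higher. The count of higher members was 3 as reported, 6 with library totals, 7 without Mock replicate 2 and 8 without Mock replicate 2 and GC7 replicate 3, the last setting being chosen after seeing the data. The share of all genes called higher rose in each of these settings too. It went from 23.0% as reported to 29.9% with library totals, and rose by less in the others. With 1 library left out, the count of higher members ran from 2 to 7. That of lower core genes ran from 0 to 1, of higher core genes from 0 to 1 and of higher 19S genes from 0 to 1. That of higher activator genes ran from 0 to 3 and of lower assembly genes from 1 to 2.

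Lower core genes numbered 1 as reported and 0 with library totals and without the filter on low counts. In these 2 settings 18.4% and 11.9% of all genes were lower. Higher core genes numbered 0 as reported, 1 with library totals, and 2 without Mock replicate 2 and GC7 replicate 3, where 1 19S gene was higher. Activator and inhibitor genes were lower in 2 cases by DESeq2, beside 25.6% of all genes. They were higher in 3 cases with library totals (29.9% of all genes) and 2 without the filter on low counts (11.8%). They were higher in 2 cases by DESeq2 (25.1%), 2 by limma-voom (23.1%) and 3 without Mock replicate 2 and GC7 replicate 3 (28.2%). Lower assembly genes numbered 1 with library totals. The members' median log2 fold change moved from -0.0946 to 0.0026 with library totals and to 0.0132 without Mock replicate 2 and GC7 replicate 3. With 1 library left out it stayed below 0, from -0.1377 to -0.0284. Psmb5 changed sign without Mock replicate 2 and GC7 replicate 3 (0.0355) and Psmb7 with library totals (0.0038), both uncalled. With 1 library left out, Psmb5 lay between -0.182 and -0.0284, Psmb6 between -0.2036 and -0.0311 and Psmb7 between -0.1356 and -0.0382. The causes were not tested.

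Neither the labels nor the methods say whether Mock and GC7 libraries of the same number were paired. Same-numbered libraries correlated in their deviations from the group means at 0.272, -0.116, 0.202 and -0.183. Not every library correlated best with its own number, and these values cannot decide whether the libraries were paired. With the replicate number as a block, 7 members were lower and 3 higher, with 0 lower core genes (Psma6 at an FDR of 0.0104 and Psmc3 at 0.0101 were not called). Of all genes, 22.2% were lower and 21.3% higher with this block. The 3 standard to immunoproteasome ratios, run with all libraries, with the block and with each library left out, kept their direction there, and none passed an adjusted p of 0.05. For 4 pairs the smallest exact p is 0.125.

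Every tested member had at least 121 counts in each library. Psmg3, the member with that count, had an SE of 0.1185 (log2), against a median of 0.0771 over the members.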
